A study of Rattus norvegicus with 17 samples.

Results

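The intermediate filament genes of sensory neurons, Nefh, Nefm, Nefl, Prph, Ina and Vim, were followed in single neurons of rat dorsal root ganglia. The 6 genes were chosen by name, and all 6 were among the 32883 gene rows of the count tables and passed the filter on low counts. Neurons of both L4 and L5 ganglia of adult naïve male SD rats were dissociated, plated and picked one by one with a mouth pipette. The labels describe fluorescently labelled neurons picked 15 minutes after plating and neurons with neurites picked after 72 hours in culture, with at least 5 rats per time point. They do not say which batch belongs to which time or which rats, so all batches form 1 group without an injured, treated or mutant arm, and p-values measure the spread between batches, which may share animals. Of 1040 cells in 16 batches, 967 with at least 2000 detected genes were kept, with a median of 139374 UMIs (molecular tags, 1 per captured transcript end). The labels count 1080 cells in 17 batches, 40 of them in batch 21. The counts given under batch 21 were a copy of all counts of batch 20, which holds 96 cells. The 40 cells of batch 21 could therefore not be analysed here.

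Intermediate filaments are rope-like polymers that give an axon its calibre and mechanical strength. In mature neurons the light, medium and heavy neurofilament chains (Nefl, Nefm and Nefh) polymerise together. Nefl forms the core, while the long tails of Nefm and above all Nefh project from it and are heavily phosphorylated in large myelinated axons. Peripherin (Prph) is a subunit of peripheral neurons, known for its abundance in small unmyelinated sensory neurons and for its increase after axon injury. Alpha-internexin (Ina) is best known from the developing nervous system. Vimentin (Vim) is the filament of mesenchymal, glial and immature neural cells, and it is also made in injured sensory axons.

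Sequence upstream of the start is shown for Prph, Ina and Vim, since no window was available for Nefh, Nefm and Nefl. Prph was the most abundant member in these cells. Ina passed the test in 4 of 7 gates, and Vim, like Nefm, passed it in none. Each window holds the 120 bases before the annotated start (RefSeq, build GRCr8, plus strand, written 5′ to 3′). Capitals mark TATAAA, and GGGCGG or its reverse complement CCGCCC.
Prph, chr7:132097169-132097288: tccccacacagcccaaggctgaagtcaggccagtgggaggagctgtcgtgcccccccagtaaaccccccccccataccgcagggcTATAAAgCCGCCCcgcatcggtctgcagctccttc
Ina, chr1:255838009-255838128: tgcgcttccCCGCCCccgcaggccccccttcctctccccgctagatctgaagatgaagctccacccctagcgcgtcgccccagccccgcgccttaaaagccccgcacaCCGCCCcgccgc
Vim, chr17:81577141-81577260: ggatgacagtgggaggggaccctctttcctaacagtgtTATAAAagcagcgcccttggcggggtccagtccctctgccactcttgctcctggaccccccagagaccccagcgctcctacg
The Prph window holds TATAAA 35 bases before the start and 1 CCGCCC after it. The Ina window holds 2 CCGCCC and no TATAAA. The Vim window holds TATAAA 82 bases before the start and no GGGCGG. Of 33469 windows of this length, 6.66% hold TATAAA and 23.7% hold GGGCGG, on either strand. Nefl and Nefm are neighbours in the RefSeq annotation, with no other protein-coding gene between them.

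Cells were sorted into 8 gates by Sst+Nppb, Trpm8, Clmp, Th, Ntsr1+Chrna3, Gzmbl3+Lpar3, Nmu+Lad1 and Pvalb+Vsnl1, and no filament gene took part in the gating. A gate gene was positive at 10% or more of its 98th percentile among kept cells. A cell positive for several gates went to the one at least 2 times ahead. This gave 63 Sst+Nppb, 49 Trpm8, 225 Clmp, 49 Th, 67 Ntsr1+Chrna3, 50 Gzmbl3+Lpar3, 28 Nmu+Lad1 and 7 Pvalb+Vsnl1 cells, 538 in all, while 380 cells were positive for no gate and 49 had no clear lead. UMIs were summed over the cells of a gate in a batch where there were at least 3 cells, which gave 65 sums of 102756 to 7205280 UMIs. Levels are given as CPM, the UMIs of a gene scaled to a fixed total of UMIs in every cell or sum. Because a tag marks a 3′ end, the counts do not grow with transcript length, and levels of different genes were set side by side. Whether the ends of different genes were captured equally well was not tested.

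The gates were checked against markers that took no part in the gating. Trpm8 sums held 35.1 CPM of Foxp2, and Clmp sums held 209.7 CPM of Kit. Pvalb+Vsnl1 cells averaged 706 CPM of Spp1, 117 CPM of Scn1a, 113 CPM of Etv1 and 51.7 CPM of Ntrk3, genes of large mechanosensory and proprioceptive neurons, against gate means of 4.44 to 56.1, 0.198 to 11.7, 0.133 to 14.2 and 2.59 to 14.3 CPM in the other gates. The 7 cells also averaged 105 CPM of Clmp, the gene of another gate, whose sums held 150 CPM. The 7 cells were uneven: Scn1a was at 0 in 2 of them and Ntrk3 in 3. The single cell of batch 28-3 had 52.7 CPM of Spp1 and neither Scn1a nor Ntrk3. Other gates lacked some markers of the mouse types whose genes they carry and are called by their genes only. Th sums had Slc17a8 and P2ry1 at 0, and Tafa4, Gfra2 and Zfp521 were each higher in another gate. The same held for P2rx3, Chrna6 and Chrnb3 of the Ntsr1+Chrna3 list. Nmu+Lad1 sums had the highest Ret (296 CPM), but Atp2b2 and Ntrk2 were higher in Pvalb+Vsnl1 cells. Nmu+Lad1 sums also held 275.5 CPM of Gzmbl3, above its positivity threshold of 68.4 CPM. Gzmbl3+Lpar3 sums had 0.576 CPM of Mrgprd, and Sst+Nppb sums had Cysltr2 and Htr1f at 0. Cysltr2 and Htr1f did not exceed 1.08 and 2.55 CPM in any gate. Of the other markers checked for Sst+Nppb neurons, Osmr, Il31ra and Jak1 were highest in this gate. Osmr stood at 94.6 CPM there, against 3.14 to 22.1 CPM in the other gates. Il31ra stood at 3.10 CPM, against at most 0.148 CPM. Nts was highest in Pvalb+Vsnl1 cells (113 CPM), against 6.05 CPM in Sst+Nppb sums. At least 1 Sst UMI was found in 76.2% of cells of other gates, at a mean of 30.4 CPM against 1373 CPM within the gate.

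Prph was the most abundant member on average in each of the 7 gates with sums. The gate means lay between 869 and 1555 CPM for Prph, 706 and 1107 CPM for Nefm, 395 and 813 CPM for Nefl, 250.3 and 652 CPM for Ina, 126 and 349 CPM for Nefh, and 168 and 274 CPM for Vim. Together the 6 genes made up 0.293% to 0.432% of all UMIs, as gate means. Nefm, Nefl and Prph had a UMI in every gated cell. The lowest share of cells with a UMI was that of Vim in Nmu+Lad1 neurons, 26 of 28 cells (92.9%, exact 95% binomial interval 76.5 to 99.1%, counting error only). Among the filament UMIs, Prph took its largest mean share in Clmp sums (39.5% ± 2.76, SD, n = 15) and Ina in Nmu+Lad1 sums (20.6% ± 6.37, SD, n = 4).

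**Figure D1:**
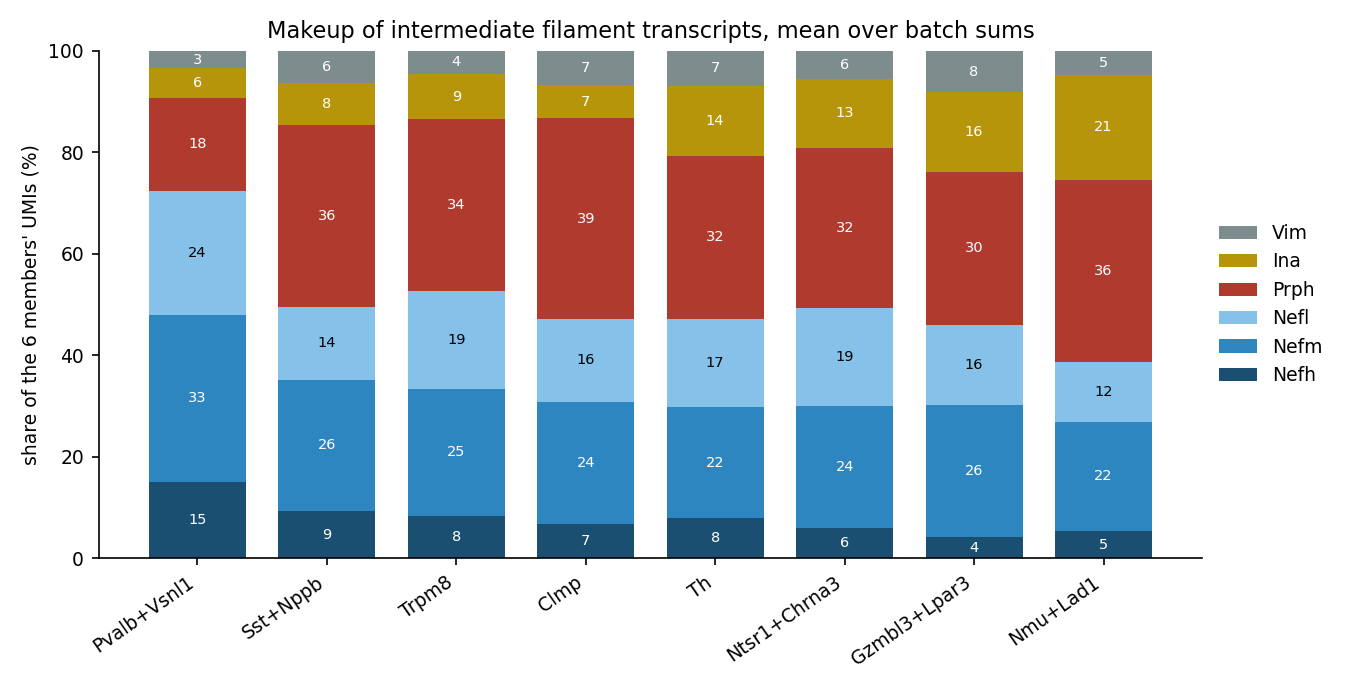
Share of each member in the summed UMIs of the 6 filament genes (%), as the mean over the batch sums of each gate; Pvalb+Vsnl1 sums hold 1 or 2 cells, the others at least 3. Prph is the widest band in the 7 gates from Sst+Nppb to Nmu+Lad1, with 39.5% in Clmp sums.

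Pvalb+Vsnl1 neurons carried more of all 3 neurofilament chains than the other gates of their batches, and differences in Prph, Ina and Vim did not pass the test. The gate held 7 cells in 5 batches and no sum of 3 cells, so sums of at least 1 cell were used, a choice made after the cell counts were seen. Nefh stood at 1121, 854, 952, 939 and 1080.4 CPM in Pvalb+Vsnl1 cells of batches 27, 28-3, 29, 34 and 35, against 281, 221, 233, 257 and 239.7 CPM as the mean of the other gates there. No other gate reached the Pvalb+Vsnl1 level of Nefh in any of these batches. Nefm stood at 2171, 2446, 1679, 2344 and 2361 CPM in Pvalb+Vsnl1 cells, against 857, 876, 720.0, 859.7 and 1033 CPM in the other gates. The range of the Pvalb+Vsnl1 cells did not overlap that of the other gates' means, although 1 gate was above the Pvalb+Vsnl1 cell in batch 35. Nefl stood at 2365, 2383, 799, 2136 and 764 CPM in Pvalb+Vsnl1 cells, against 632, 586, 537, 615 and 858 CPM in the other gates. It was high in batches 27, 28-3 and 34. In batch 29 it was still above every other gate, and in batch 35 it was below 2 of them.

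**Figure D2:**
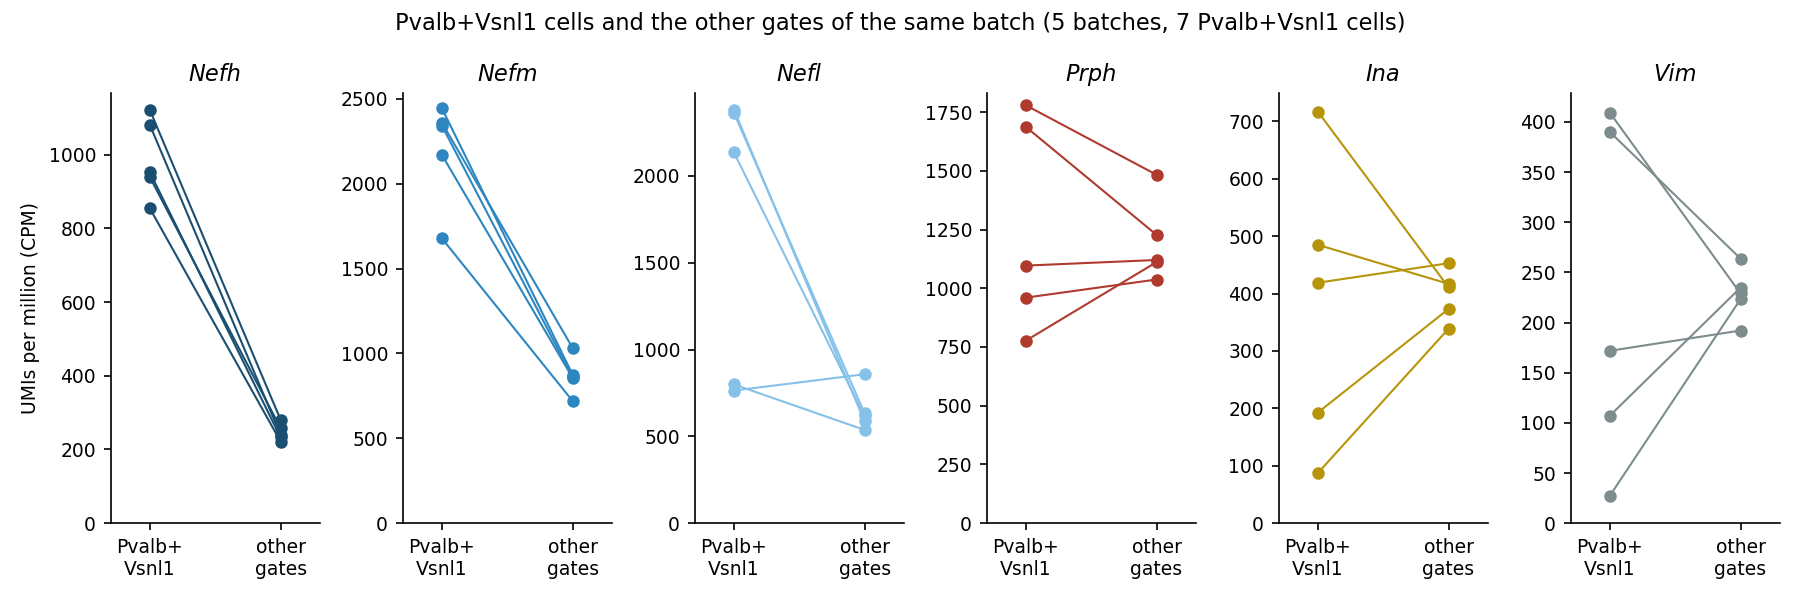
Level (CPM) of each member in Pvalb+Vsnl1 cells (left, sums of 1 or 2 cells) and the mean of the other gates of the same batch (right), 1 line per batch, 5 batches. All 5 lines slope down to the right for Nefh and Nefm and 4 of 5 for Nefl, while those of Prph, Ina and Vim run both ways.

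In an edgeR quasi-likelihood fit over gates and batches, 3 of the 6 members were called higher in Pvalb+Vsnl1 cells at an adjusted p under 0.05, where 5.04% of 11590 genes were called higher, and 0 were called lower, where 4.72% of genes were. Nefh averaged 989 ± 109 CPM in Pvalb+Vsnl1 cells and 246 ± 23.2 CPM in the other gates (SD, n = 5 batches), a log2 change of 2.13 (SE 0.22, adjusted p = 3.69e-12, higher in 5 of 5 batches). Nefm averaged 2200.1 ± 308 CPM in Pvalb+Vsnl1 cells and 869 ± 111 CPM in the other gates, a log2 change of 1.41 (SE 0.19, adjusted p = 3.62e-08, 5 of 5 batches). Nefl averaged 1689 ± 834 CPM in Pvalb+Vsnl1 cells and 646 ± 124 CPM in the other gates, a log2 change of 1.49 (SE 0.25, adjusted p = 5.14e-06, 4 of 5 batches). All 3 calls held when each of the 5 batches was left out and when every cell positive for Pvalb and Vsnl1 was given to this gate. Each Pvalb+Vsnl1 sum held 1 or 2 cells, so these p-values cannot separate the spread between batches from that between cells. The fit also shares its estimate of spread with the gates of more cells. Together the members made up 0.674% ± 0.114 of UMIs in Pvalb+Vsnl1 cells and 0.358% ± 0.0396 in the other gates.

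Prph averaged 1259.8 ± 448 CPM in Pvalb+Vsnl1 cells and 1196 ± 174 CPM in the other gates, a log2 difference of 0.09 (SE 0.20, adjusted p = 0.851). Ina averaged 380.2 ± 249 CPM in Pvalb+Vsnl1 cells and 399 ± 43.7 CPM in the other gates (log2 difference -0.15, SE 0.24, adjusted p = 0.762). Vim averaged 221 ± 171 CPM in Pvalb+Vsnl1 cells and 229 ± 25.7 CPM in the other gates (log2 difference -0.15, SE 0.45, adjusted p = 0.893). Each Pvalb+Vsnl1 cell was also set beside the cells of other gates within 2-fold of its depth. For the Pvalb+Vsnl1 cell of 201042 UMIs, 2 of 250 such cells had more Nefh, 1 had more Nefm and 0 had more Nefl, whereas 208 had more Prph. For the cell of 214742 UMIs, 2 of 263 had more Nefh, 1 more Nefm, 85 more Nefl and 63 more Prph. For the cell of 623035 UMIs, 0 of 194 had more Nefh, 1 more Nefm, 23 more Nefl and 155 more Prph. At 165623 UMIs, 2 of 227 had more Nefh, 12 more Nefm, 0 more Nefl and 185 more Prph. At 94848 UMIs, 3 of 164 had more Nefh, 8 more Nefm, 2 more Nefl and 121 more Prph. At 329833 UMIs, 1 of 288 had more Nefh, 0 more Nefm, 0 more Nefl and 241 more Prph. For the shallowest cell, of 7678 UMIs, 4 of 17 had more Nefh, 2 more Nefm, 4 more Nefl and 2 more Prph. Markers of other cell types were higher in the Pvalb+Vsnl1 cells, with a median summed level of 1866 CPM against medians of 317 to 532 CPM in the other gates. Most of it was S100b (1194 CPM), which large sensory neurons make as well as glia, followed by Apoe (236 CPM). Sox10 (8.36 CPM) and Cd68 (70.8 CPM) were also above every other gate. Glul (106 CPM), Csf1r (0) and Cd74 (0) were below every other gate, and Kcnj10 stood at 0 in all gates. The part of these transcripts in the result was not tested.

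Among the other 7 gates, Nefh, the heavy chain, was highest on average in Trpm8 neurons and lowest in Gzmbl3+Lpar3 neurons. Its Gzmbl3+Lpar3 sums ran from 70.2 to 191 CPM with a median of 112, and its Trpm8 sums from 227 to 574 CPM with a median of 322, so these ranges did not overlap. The order of the means was Trpm8 (349 CPM), Th (314 CPM), Sst+Nppb (272 CPM), Clmp (265 CPM), Ntsr1+Chrna3 (215 CPM), Nmu+Lad1 (172 CPM) and Gzmbl3+Lpar3 (126 CPM), and the ranges of all neighbours in it overlapped. In Gzmbl3+Lpar3 neurons 2 of 6 members, Nefh and Prph, were called lower by edgeR, where 4.72% of 11939 genes were, and 0 higher, where 5.76% were.

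Nefh averaged 126 ± 47.3 CPM in Gzmbl3+Lpar3 sums (SD, n = 7) and 265 CPM over the means of the other gates, a log2 change of -0.99 (SE 0.18, adjusted p = 8.70e-05, lower in 7 of 7 batches). This call held under all 12 alternatives other than leaving out batches, with log2 changes of -1.05 to -0.86, and without each batch. In Trpm8 neurons Nefh averaged 349 ± 116 CPM (SD, n = 11), against 227 CPM in the other gates, a log2 change of 0.74 (SE 0.13, adjusted p = 0.000115, higher in 8 of 11 batches). It missed the threshold among cells of 100000 to 400000 UMIs (log2 change 0.40, adjusted p = 0.283) and among cells positive for exactly 1 gate (0.36, adjusted p = 0.532). In Th neurons Nefh averaged 314 ± 53.7 CPM (SD, n = 8), against 233 CPM in the other gates, which missed the threshold (log2 difference 0.50, SE 0.14, adjusted p = 0.0517). It passed in 5 of 12 alternatives, among them DESeq2 (adjusted p = 0.0317) and limma voom (adjusted p = 0.0365), and without batch 23, 24, 27, 28-1, 32 or 35, and the adjusted p over the alternatives ran from 0.000534 to 0.838.

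**Figure D3:**
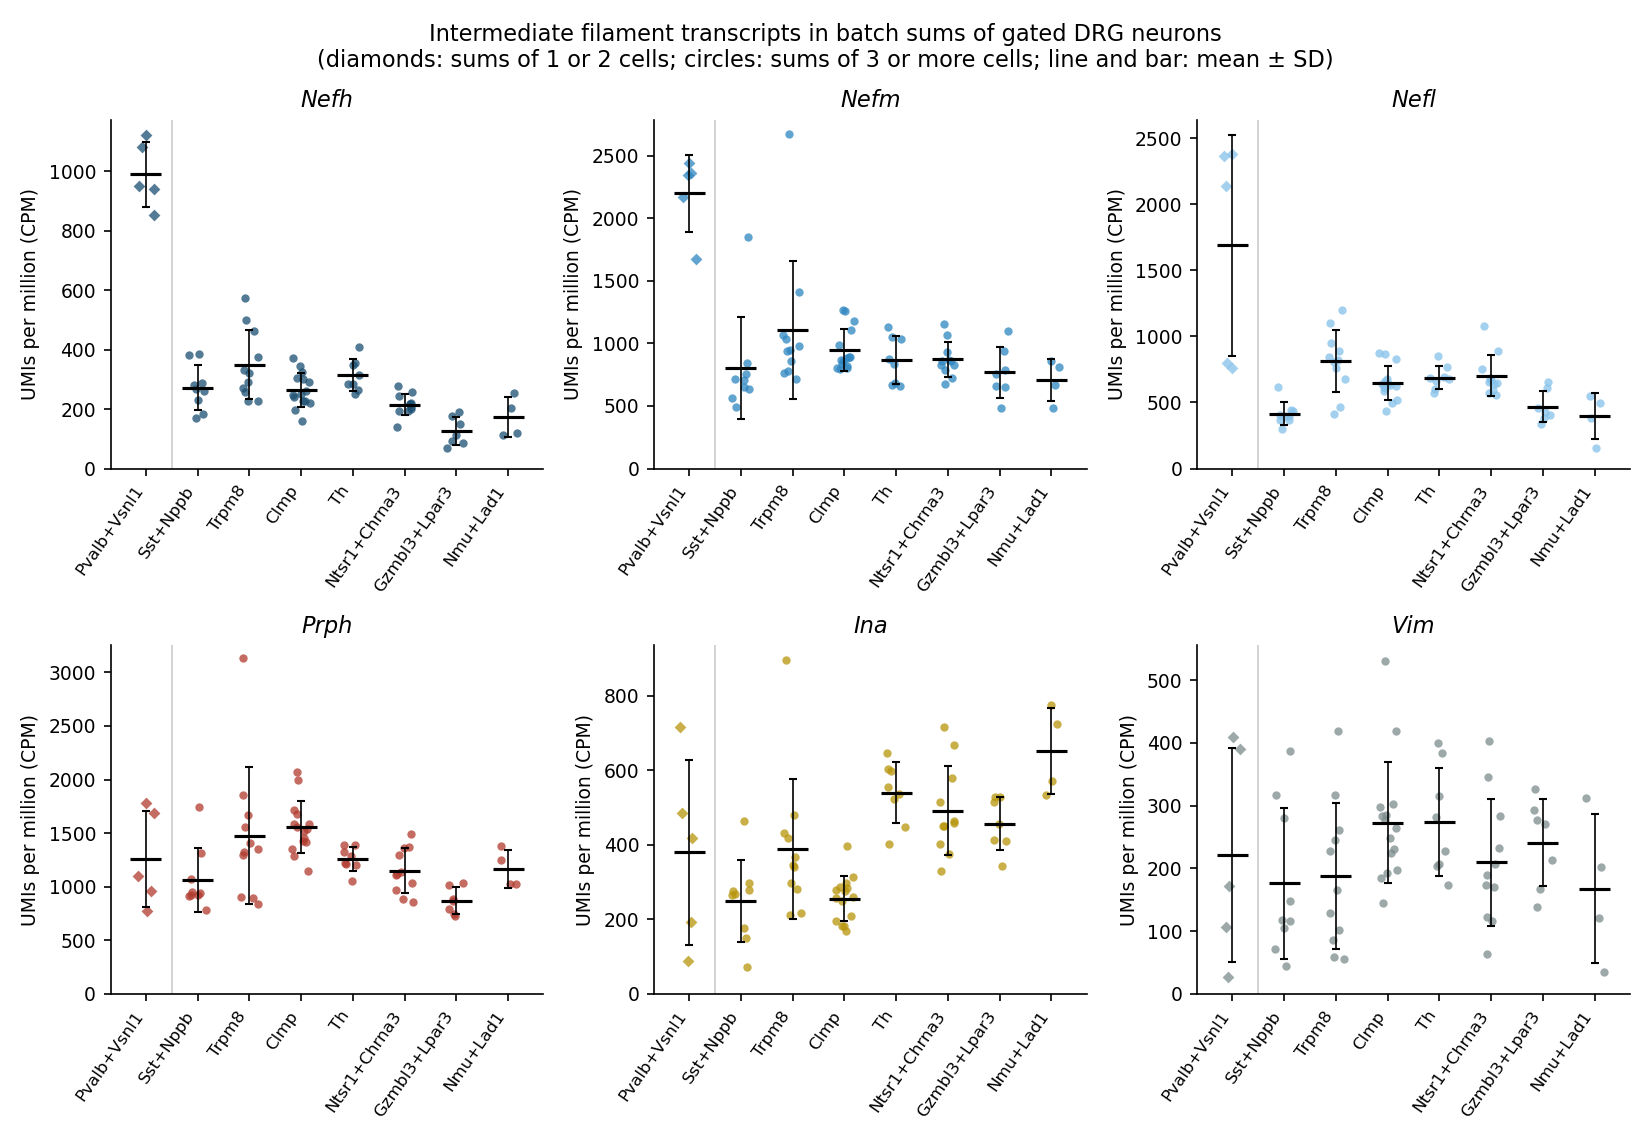
Level (CPM) of each member in batch sums by gate, with mean and SD; Pvalb+Vsnl1 sums hold 1 or 2 cells, the others at least 3. Nefh lies at 854 to 1121 in Pvalb+Vsnl1 sums and at 70.2 to 191 in Gzmbl3+Lpar3 sums. Mean Ina is lower in Sst+Nppb and Clmp sums than in Th and Nmu+Lad1 sums, and the Sst+Nppb and Th ranges overlap.

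Nefl, the core chain, was lower in Sst+Nppb neurons and higher in Trpm8 neurons. The Sst+Nppb sums ran from 301 to 615 CPM with a median of 401, and each was below the mean of the other gates of its batch. Nefl averaged 414 ± 86.4 CPM there (SD, n = 9), against 619 CPM in the other gates, a log2 change of -0.61 (SE 0.14, adjusted p = 0.00125, lower in 9 of 9 batches). With cells thinned to 20000 UMIs the change was -0.24 (adjusted p = 0.476), and with a gate threshold of 25% it was -0.15 (adjusted p = 0.727). The Trpm8 sums ran from 412 to 1197 CPM with a median of 821. Nefl averaged 813 ± 236 CPM there (SD, n = 11), against 553 CPM in the other gates, a log2 change of 0.62 (SE 0.12, adjusted p = 0.00062, higher in 9 of 11 batches), and with at least 5 cells per sum the adjusted p was 0.0991. Trpm8 neurons thus had 3 of 6 members called higher, Nefh, Nefl and Prph, where 4.22% of genes were, and 0 called lower, where 2.81% were. None of the 3 was called among cells of 100000 to 400000 UMIs, where the log2 change of Nefl was 0.17 (adjusted p = 0.646), nor among cells positive for exactly 1 gate.

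Nefm, the medium chain, passed edgeR's test in 0 of 7 gates. Its means ran from 706 ± 167 CPM in Nmu+Lad1 sums (SD, n = 4) to 1107 ± 554 CPM in Trpm8 sums (SD, n = 11), and all neighbours in the order overlapped. At an unadjusted p under 0.05 there were 3 of 7 gates, and DESeq2 and limma voom called 1 gate each. The nearest to the threshold was Trpm8, with a log2 difference of 0.35 (SE 0.12, adjusted p = 0.0509). It passed in 6 of 12 alternatives, among them edgeR with RLE factors (adjusted p = 0.0386), and without batch 23, 28-3, 30 or 35, while among cells of 100000 to 400000 UMIs the difference was -0.18 (adjusted p = 0.536). The Trpm8 median was 950.2 CPM, and its highest value, 2676 CPM, came from the sum of batch 28-1, which held 102756 UMIs and was the highest Trpm8 sum for all 6 members.

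Peripherin was highest on average in Clmp neurons and lowest in Gzmbl3+Lpar3 neurons. Clmp neurons were above Trpm8 neurons, the next gate, in 7 of 10 shared batches, and the ranges overlapped. The peptide gene Calca stood at 1852 CPM in Clmp sums and at 1727 CPM in Sst+Nppb sums, whose Prph mean was 1063 CPM. The summed level of 6 genes that respond to axon injury was also highest in Clmp sums, with a gate mean of 5509 ± 811 CPM (SD, n = 15). It was lowest in Gzmbl3+Lpar3 sums, at 3621 ± 769 CPM (SD, n = 7). The summed level of 5 general neuronal markers was also lowest in Gzmbl3+Lpar3 sums, at 3205 ± 282 CPM (SD, n = 7), and 4093 ± 391 CPM in Clmp sums (SD, n = 15). The part of either in the Prph differences between gates was not tested. The Prph sums ran from 1150.1 to 2071 CPM with a median of 1542 in Clmp neurons and from 726 to 1039 CPM with a median of 867 in Gzmbl3+Lpar3 neurons, without overlap. Prph averaged 1555 ± 242 CPM in Clmp sums (SD, n = 15), against 1164 CPM in the other gates, a log2 change of 0.48 (SE 0.08, adjusted p = 1.02e-05, higher in 14 of 15 batches). It averaged 869 ± 125 CPM in Gzmbl3+Lpar3 sums (SD, n = 7), against 1278 CPM in the other gates, a log2 change of -0.54 (SE 0.13, adjusted p = 0.00259, lower in 7 of 7 batches), and with a gate threshold of 25% the adjusted p was 0.149. In Trpm8 sums it averaged 1476 ± 639 CPM (SD, n = 11), against 1177 CPM in the other gates, a log2 change of 0.34 (SE 0.10, adjusted p = 0.0255, higher in 7 of 11 batches). That call was lost without batch 20, 24, 25, 28-1, 31, 33 or 34, with adjusted p of up to 0.16, and in 6 of 12 alternatives, limma voom (adjusted p = 0.112) and both other gate thresholds (0.0525 at 5%, 0.234 at 25%) among them.

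The level of Prph moved with the depth of a cell. Among cells of at least 20000 UMIs, the correlation of log2(CPM + 10) with log2 total UMIs within gate and batch ran from -0.886 to -0.725 over 7 gates for Prph, with a median of -0.839. The median was -0.621 for Nefm and -0.351 for Nefl, and 0.0563, -0.0808 and 0.0144 for Nefh, Ina and Vim, whose values had both signs. For Nefh they ran from -0.439 in Trpm8 to 0.296 in Nmu+Lad1 neurons, and its median level in Trpm8 cells was 542 CPM in 16 cells of under 100000 UMIs, 328 CPM in 27 cells of 100000 to 400000 UMIs and 239 CPM in 6 cells of over 400000 UMIs. In Clmp neurons the median Prph level was 3113 CPM in 75 cells of under 100000 UMIs, 1731 CPM in 103 cells of 100000 to 400000 UMIs and 1191 CPM in 47 cells of over 400000 UMIs. Molecules per cell went the other way, with medians of 163, 338 and 639 Prph UMIs. Of 2433 genes of at least 100 CPM in Clmp cells, 12 had a more negative correlation with depth than Prph (-0.878), and the median gene had 0.306.

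Depth also differed between the gates, with medians of 181536 UMIs per Clmp cell and 376759.5 UMIs per Gzmbl3+Lpar3 cell. Among cells of 100000 to 400000 UMIs, the log2 change of Prph was 0.50 in Clmp neurons (adjusted p = 7.02e-05) and -0.45 in Gzmbl3+Lpar3 neurons (adjusted p = 0.0651), and 0.02 in Trpm8 neurons (adjusted p = 0.965). The 380 cells of no gate, with a median of 48846.5 UMIs, had a median of 2466 CPM of Prph, against 1490.4 CPM in gated cells.

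**Figure D4:**
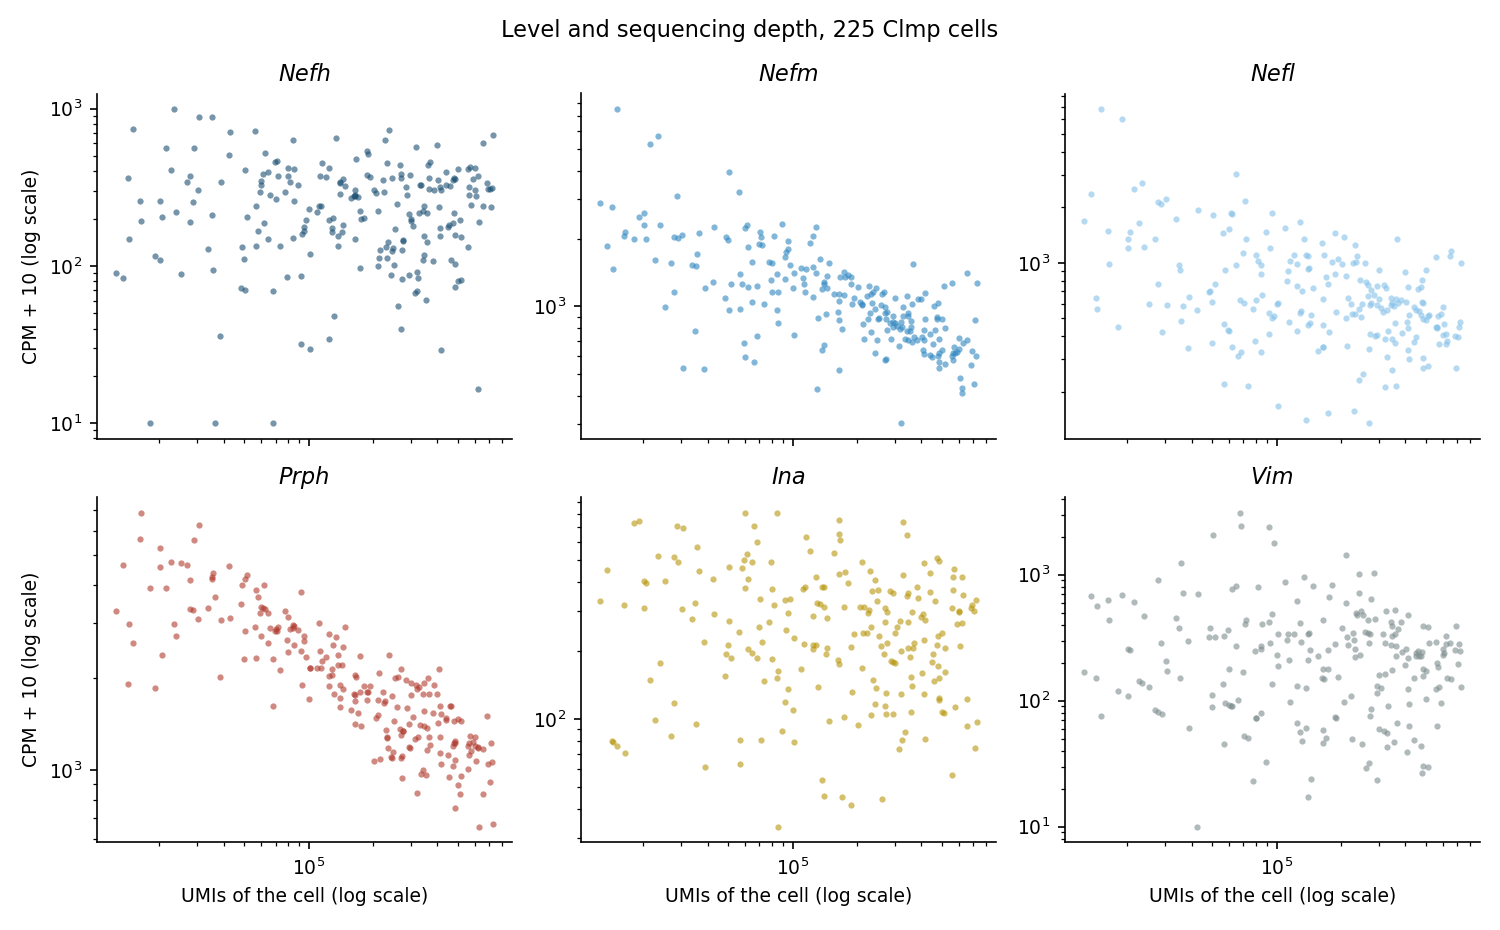
Level of each member (CPM + 10, log scale) against total UMIs (log scale) in the 225 Clmp cells, 1 point per cell. Prph and Nefm are lower in deeper cells, with correlations within batches of -0.878 and -0.621 over the 216 cells of at least 20000 UMIs, and Nefh (0.0255), Ina (-0.0808) and Vim (-0.045) show little slope.

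Ina was lower in Sst+Nppb and Clmp neurons and higher in Nmu+Lad1 and Th neurons. Its sums ran from 72.6 to 464 CPM (median 268) in Sst+Nppb neurons, from 169 to 398 CPM (median 261) in Clmp neurons and from 402 to 648 CPM (median 547) in Th neurons. The 4 Nmu+Lad1 sums held 776, 573, 535 and 725 CPM in batches 25, 26, 29 and 30, above every Clmp and Sst+Nppb sum. In the order of the means, Trpm8 neurons (390.3 CPM) were above their neighbour Clmp (256 CPM) in 10 of 10 shared batches, although the ranges overlapped.

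In Sst+Nppb neurons Ina averaged 250.3 ± 110.1 CPM (SD, n = 9), against 464 CPM in the other gates, a log2 change of -0.93 (SE 0.15, adjusted p = 4.27e-06, lower in 9 of 9 batches). Nefl and Ina were the 2 of 6 members called lower there, where 5.98% of genes were, and 0 were called higher, where 7.63% were. In Clmp neurons Ina averaged 256 ± 61.3 CPM (SD, n = 15), against 464 CPM in the other gates, a log2 change of -0.75 (SE 0.11, adjusted p = 8.32e-07, lower in 15 of 15 batches). Prph was the 1 member called higher in that gate, where 10.8% of genes were, and Ina the 1 called lower, where 6.99% were. Of all genes called in Clmp neurons 60.7% were higher, against 50.6% with RLE scaling factors and 48.0% with DESeq2, and both members kept their calls under each. With limma voom and with no filter on low counts all 6 members were called in this gate, Nefh, Nefm, Nefl and Vim as higher, and Vim was called higher in 5 of 12 alternatives. Among cells of 100000 to 400000 UMIs the Clmp change was -0.47 (adjusted p = 0.073) and the Sst+Nppb change -1.45 (adjusted p = 0.00746).

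In Nmu+Lad1 neurons Ina averaged 652 ± 116 CPM (SD, n = 4), against 398 CPM in the other gates, a log2 change of 0.80 (SE 0.19, adjusted p = 0.0058, higher in 4 of 4 batches). Without batch 25 the change was 0.49 (adjusted p = 0.29), and with a gate threshold of 25% the adjusted p was 0.159. In Th neurons Ina averaged 539.6 ± 81.6 CPM (SD, n = 8), against 416 CPM in the other gates, a log2 change of 0.51 (SE 0.14, adjusted p = 0.0328, higher in 8 of 8 batches). This call was kept in 5 of 12 alternatives and lost without batch 20, 29, 31, 32 or 34, with adjusted p of up to 0.125. Ina was the 1 of 6 members called higher in Nmu+Lad1 neurons, where 2.37% of genes were, and in Th neurons, where 1.22% were. No member was called lower in either gate, where 1.85% and 0.586% of genes were. In Ntsr1+Chrna3 neurons edgeR called 0 of 6 members, where 2.68% of genes were called higher and 1.49% lower. There 2 members had an unadjusted p under 0.05, and DESeq2 and limma voom called 0. In all 7 gates, 11 of 42 tests of members passed, 6 higher and 5 lower, beside 8.45% of the tests of all genes in these gates, and the gates serve as each other's comparison.

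Vim passed edgeR's test in 0 of 7 gates. Its sums ranged from 35.1 CPM, in an Nmu+Lad1 sum, to 531 CPM, in a Clmp sum, and the means from 168 ± 118 CPM in Nmu+Lad1 (SD, n = 4) to 274 ± 85.8 CPM in Th sums (SD, n = 8). At an unadjusted p under 0.05 there was 1 gate, DESeq2 called 0 and limma voom 1. Under alternatives Vim was called higher in Clmp neurons with cells thinned to 20000 UMIs (adjusted p = 0.00641), at least 5 cells per sum (0.0261), cells positive for exactly 1 gate (0.0401) and no filter on low counts (0.000442). It was called lower in Trpm8 neurons with at least 5 cells per sum (log2 change -1.15, adjusted p = 0.0322). Single cells spread widely: the highest, in the Sst+Nppb gate, held 9787 CPM, while the median was 117 CPM in that gate and 47.6 CPM among Nmu+Lad1 cells. The summed level of 10 glial markers lay between 159 and 809 CPM in the sums, with Kcnj10 at 0 in every gate, and its part in the Vim level was not tested.

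Since the chains polymerise together, their UMI ratios within the same cells were compared as well. Relative to Nefl, Sst+Nppb neurons held more Nefh, Nefm and Prph, Ntsr1+Chrna3 neurons held less of all 3, Gzmbl3+Lpar3 neurons held less Nefh and Clmp neurons held more Prph. All 3 ratios share Nefl, so those of a gate are not separate results. In Sst+Nppb neurons the edgeR log2 difference was -0.61 for Nefl itself, 0.19 for Nefh, -0.31 for Nefm and -0.26 for Prph. In Ntsr1+Chrna3 neurons it was 0.28 for Nefl, -0.19 for Nefh, -0.00051 for Nefm and -0.10 for Prph. Of these only Nefl in Sst+Nppb neurons passed edgeR's test. The ratio of Nefh to Nefl ran from 0.416 to 0.96 in 9 Sst+Nppb sums (median 0.661), from 0.203 to 0.385 in 11 Ntsr1+Chrna3 sums (median 0.323) and from 0.208 to 0.35 in 7 Gzmbl3+Lpar3 sums (median 0.245). Every Sst+Nppb sum was above every sum of the other two gates.

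Differences in log2 ratio from the other gates of the same batch were tested with a two-sided exact sign-flip permutation test over batches, in 18 tests with Benjamini-Hochberg adjustment. In Sst+Nppb neurons the Nefh to Nefl ratio was higher by 0.77 ± 0.33 (SD, 9 of 9 batches, exact p = 0.00391, the smallest that 9 batches allow, adjusted p = 0.0281). The Nefm and Prph ratios were higher there by 0.36 ± 0.28 and 0.36 ± 0.30, each in 8 of 9 batches (exact tests, adjusted p = 0.0281 and 0.0301). In Ntsr1+Chrna3 neurons the differences were -0.45 ± 0.44 for Nefh, -0.24 ± 0.21 for Nefm and -0.37 ± 0.28 for Prph, lower in 10, 10 and 9 of 11 batches (exact tests, adjusted p = 0.0301, 0.0281 and 0.0281). In Gzmbl3+Lpar3 neurons the Nefh difference was -0.58 ± 0.16, lower in 7 of 7 batches (exact p = 0.0156, the smallest that 7 batches allow, adjusted p = 0.0352). In Clmp neurons the Prph ratio was higher by 0.26 ± 0.31, in 11 of 15 batches (exact test, adjusted p = 0.0281).

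**Figure D5:**
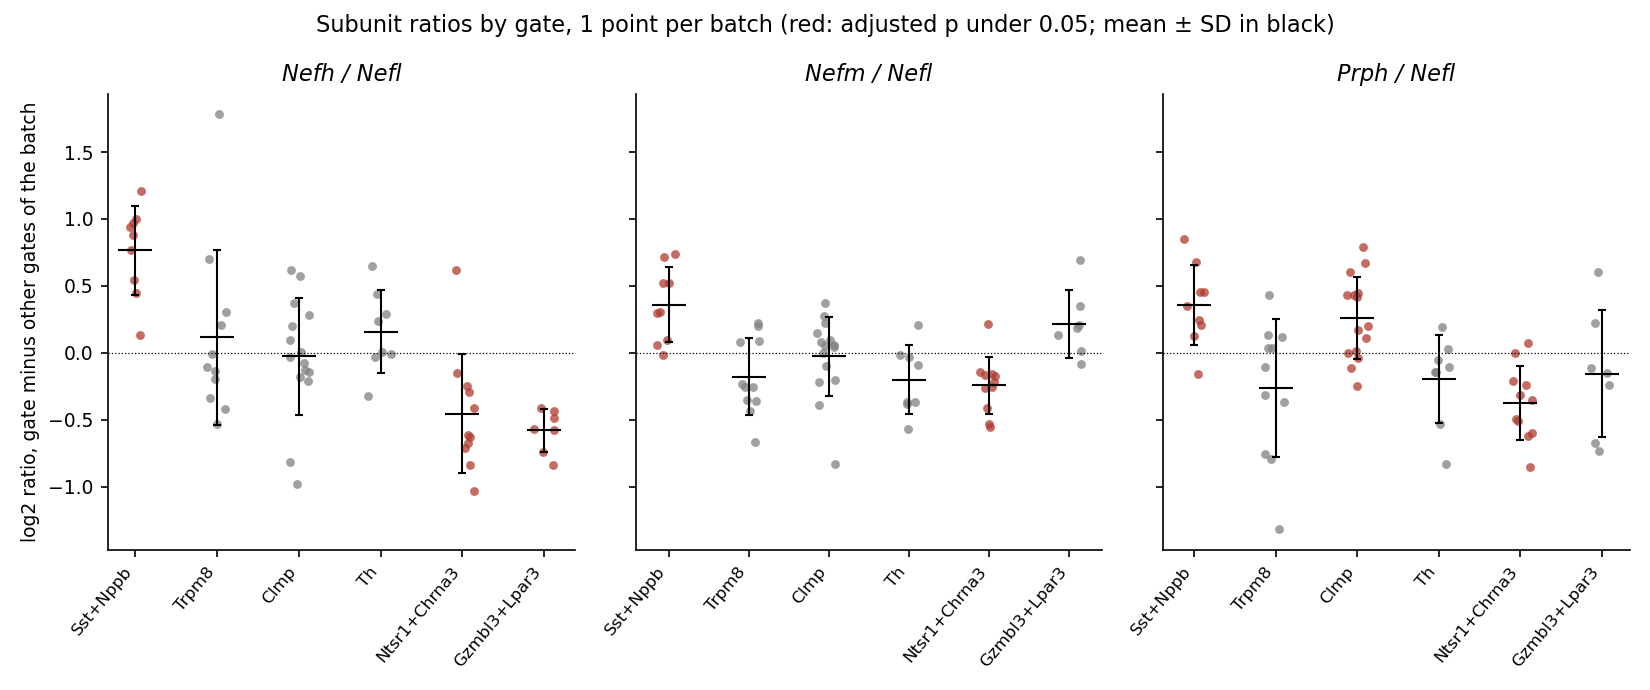
Difference of the log2 UMI ratio to Nefl between each gate and the mean of the other gates of its batch, 1 point per batch, with mean and SD. The Nefh points of Sst+Nppb lie above 0 in 9 of 9 batches and those of Gzmbl3+Lpar3 below 0 in 7 of 7.

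The other 10 ratio tests did not pass, with adjusted p of 0.0938 to 0.82. In Nmu+Lad1 sums, too few to test, the Prph to Nefl ratio averaged 3.59 ± 2.05 (SD, n = 4). In Pvalb+Vsnl1 cells the log2 Nefh to Nefl ratio was higher by 0.79 ± 0.98 (SD), in 5 of 5 batches, at an exact p of 0.0625, the smallest that 5 batches allow. The single cells ran from 0.235 to 1.41 Nefh per Nefl UMI. For Prph to Nefl the log2 difference in Pvalb+Vsnl1 cells was -1.26 ± 0.88 (SD), lower in 4 of 5 batches (exact test, p = 0.125). For Nefm to Nefl it was 0.08 ± 0.83 (SD, exact test, p = 0.8125). Among cells, the ratios to Nefl correlated with depth with medians over 7 gates of 0.286 for Nefh, -0.153 for Nefm and -0.32 for Prph. For Nefh to Nefl the correlation ran from -0.238 in Trpm8 to 0.552 in Sst+Nppb neurons. Among the gates tested on sums of at least 3 cells, Sst+Nppb had the largest difference in this ratio. That difference was 0.32 with cells thinned to 20000 UMIs. With cells thinned to 20000 UMIs, Prph to Nefl in Clmp neurons was the 1 of the 8 ratio calls that passed (difference 0.35, exact test, adjusted p = 0.0352).

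From cell to cell, Nefm varied most closely with Nefl and with Prph. Within gate and batch, the correlation of Nefm with Nefl had a median of 0.685 over 7 gates (0.506 to 0.849), Nefm with Prph 0.565, Nefh with Nefl 0.371, Nefl with Prph 0.36, Nefh with Nefm 0.16 and Nefh with Prph 0.108. The medians of Ina with the other 5 members lay between -0.0316 and 0.108, and those of Vim between -0.0617 and 0.203. The cells share libraries, and Nefm, Nefl and Prph share a relation to depth.

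Across the 65 sums, less the mean of the batch, the gene with the profile most like Prph among 7053 genes was Stmn3 (r = 0.835), followed by Map1lc3b, Gng3 and Klc1. Ina was closest to Pea15 (r = 0.835), followed by Tgfbi, Cd24 and Ano4. Nefl was closest to Gng3 (0.733), before Snap25, Sod1 and Fkbp4, and Nefm to Gabarapl1 (0.67), before Gng3, Klc1 and Map1b, with 0.79 between Nefl and Nefm themselves. Nefh was closest to Map7d2 (0.705), before Slc25a4, Ralyl and Rarres1, and Vim to Kcnip1 (0.621), before Tmem98, Ppp2r2b and Clgn. The sums share batches, and these values are descriptions.

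Of 16 other intermediate filament genes, 15 were in the counts and 11 were tested in the 7 gates. Desmin (Des), the muscle filament, was higher in Sst+Nppb neurons (21.5 CPM against 10.7 CPM in the other gates, log2 change 2.22, SE 0.57, adjusted p = 0.00445) and in Ntsr1+Chrna3 neurons (23.8 CPM against 10.3 CPM, log2 change 2.10, SE 0.49, adjusted p = 0.00589). Bfsp1, a filament of the eye lens, was higher in Gzmbl3+Lpar3 neurons (49.7 CPM against 11.2 CPM, log2 change 2.24, adjusted p = 0.000916) and in Sst+Nppb neurons (27.1 CPM against 15.0 CPM, log2 change 1.80, adjusted p = 0.00129). The CPM are plain means over sums and gates, while the log2 changes compare gates on a log scale within the fit, so they need not match. The counts called higher and lower were 2 and 0 in Sst+Nppb, 1 and 0 in Ntsr1+Chrna3 and in Gzmbl3+Lpar3, 0 and 1 in Clmp and in Nmu+Lad1, and 0 and 0 in Trpm8 and Th neurons. A single call of 11 is 9.09%, beside 5.76% of all genes called higher in Gzmbl3+Lpar3 and 2.68% in Ntsr1+Chrna3, and 6.99% lower in Clmp and 1.85% in Nmu+Lad1, and the 2 in Sst+Nppb are 18.2%, beside 7.63% of all genes. In Pvalb+Vsnl1 cells 0 of 10 were higher and 3 lower, where 4.72% of all genes were lower, namely the lamin gene Lmna (237 CPM against 432 CPM, log2 change -0.92), Synm (log2 change -1.09) and Iffo1 (log2 change -0.68). The median log2 change over the list was -0.80 there and -0.16 to 0.31 in the other gates, beside -0.03 to 0.05 over all genes.

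Of 31 filament partners, which link, carry, modify or clear filaments, 29 were tested in the 7 gates. In Clmp neurons 4 were higher and 1 lower, led by Arhgef28, whose product binds the Nefl message (48.6 CPM against 26.4 CPM, log2 change 1.11, SE 0.22, adjusted p = 0.000164), and by the dynein chain Dync1i1 (log2 change 0.68). These are 13.8% and 3.45% of the list, near the 10.8% and 6.99% of all genes called there. In Trpm8 neurons 3 were higher and 0 lower: Uchl1 (log2 change 0.42), Sod1 (0.41) and the kinase Cdk5 (0.34), which are 10.3% of the list, beside 4.22% of all genes. In Gzmbl3+Lpar3 neurons Fam83h was higher (0.91) and Uchl1 (-0.34) and the kinesin light chain Klc1 (-0.33) lower. In Sst+Nppb neurons 0 were higher and 1 lower, the ubiquitin ligase Trim2 (92.5 CPM against 147 CPM, log2 change -0.73), which is known to act on Nefl. In Th neurons Cdk5 was higher (0.41) and Bag3 lower (-0.75), in Nmu+Lad1 neurons Macf1 was higher (0.58) and Cdk5 lower (-0.58), and in Ntsr1+Chrna3 neurons 0 of 29 were called. In Pvalb+Vsnl1 cells 2 of 28 were higher, Sod1 (0.76) and Uchl1 (0.50), and 1 lower, Macf1 (-0.68), which are 7.14% and 3.57% of the list, beside 5.04% and 4.72% of all genes. In the remaining gates at most 3 of the 29 were called, and 1 call is 3.45% of the list and 2 are 6.90%. Of all genes, 5.76% were higher and 4.72% lower in Gzmbl3+Lpar3 neurons, and 5.98% lower in Sst+Nppb neurons. In Th neurons 1.22% of all genes were higher and 0.586% lower, and in Nmu+Lad1 neurons 2.37% and 1.85%. Medians over the list lay between -0.17 and 0.12.

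Because dissociation cuts the axon, each member was set against the summed level of Atf3, Sprr1a, Gal, Sox11, Gap43 and Jun, genes that respond to axon injury, over the 15 batches of the Clmp gate. The injury sum lay between 4187 and 7523 CPM. None of 6 relations passed a permutation test with 100000 resamples after adjustment. Nefh had r = -0.58 (permutation p = 0.0243, adjusted p = 0.146) and rho = -0.475 (permutation p = 0.076, adjusted p = 0.177), and r = -0.646 without the 2 batches farthest from the median. Prph had r = 0.459 (permutation p = 0.085, adjusted p = 0.17) and rho = 0.539 (permutation p = 0.0388, adjusted p = 0.177), and r = 0.185 without those batches. Ina had r = 0.489 (permutation p = 0.0646, adjusted p = 0.17), and 0.00848 without them. The time after plating of these batches is not given, and its part was not tested.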

How the data were processed

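Single neurons were profiled with a modified Smart-seq2 protocol that adds a cell barcode and a UMI at the 3′ end. The files hold UMI counts per gene and cell, deposited as raw whole numbers, 1 table per batch. The submitters' processing notes name UMI-tools, STAR, featureCounts, Subread, SAMtools and the build Rnor_6.0, and versions, settings and strand are not given in the sources used here. Batch totals ran from 3812280 to 26065847 UMIs.

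The members, gates and lists were chosen with earlier results of these data known. A gate gene also had to reach 10 CPM and 2 UMIs. Sums per batch and gate were fitted in edgeR 4.0.16 (R 4.3.3) with TMM factors, filterByExpr, gate and batch terms and the quasi-likelihood test of each gate against the mean of the others, with Benjamini-Hochberg adjustment over all genes and a threshold of 0.05. Gate genes were left out of counts of calls. The script was tested on simulated counts with known changes. Ratios used UMI sums with 0.5 added. Intervals cover counting error only. Named genes were the members and, from each list, up to 3 called genes per direction with the largest change and at least 20 CPM, and for likeness the 4 closest genes. Profiles for likeness were log2(CPM + 5). Alternatives were other gate thresholds, exclusive gates, leaving out cells rich in markers of other types, thinning, a minimum of 5 cells, RLE factors, no filter, no batch term, DESeq2 1.42.0, limma 3.58.1 voom and leaving out batches. Sums of 1 cell, Pvalb+Vsnl1 taken first and the window of 100000 to 400000 UMIs were chosen after seeing the data. No doublet caller was run, since cells were picked singly, and 142 cells were positive for several gates. Of the kept cells, 830 could be thinned and 137 were too shallow.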

Additional observations from a re-analysis of the deposited data

Results flagged for a closer look

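Among 24 groups of 4 to 10 sums that could be checked for a value far from the rest, 2 stood out, and chance alone gives about 1 in 20. Both belong to the Sst+Nppb sum of batch 28-1, which held 3 cells and 318654 UMIs. Its Nefm level was 1855 CPM, against 490.2 to 843 CPM in the other 8 Sst+Nppb sums. Its Nefl level was 615 CPM, against 301 to 443 CPM in the others.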

How the results depend on the processing

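Nefh in Gzmbl3+Lpar3 and Ina in Sst+Nppb neurons stayed called in all 12 alternatives, Prph and Ina in Clmp neurons in 11 of 12. The cause of the changes below was not tested. Members not called whose log2 difference changed sign, with a shift of at least 1 SE, are given by alternative. Sign changes with a smaller shift between uncalled values are not listed. With Pvalb+Vsnl1 taken first, this held for Vim in Pvalb+Vsnl1 (0.53). With at least 5 cells per sum, this held for Ina in Trpm8 (0.15), Nefm in Gzmbl3+Lpar3 (0.028) and Nefm in Th (-0.085). With cells of 100000 to 400000 UMIs, this held for Nefm in Gzmbl3+Lpar3 (0.054), Nefm in Trpm8 (-0.18), Prph in Ntsr1+Chrna3 (0.11) and Prph in Th (-0.068). With cells thinned to 20000 UMIs, this held for Nefh in Ntsr1+Chrna3 (0.087), Nefm in Th (-0.043) and Prph in Sst+Nppb (0.047). With a gate threshold of 25%, this held for Ina in Trpm8 (0.095), Nefm in Sst+Nppb (0.010), Nefm in Th (-0.042), Prph in Sst+Nppb (0.13), Prph in Th (-0.13) and Vim in Ntsr1+Chrna3 (0.16). With cells rich in markers of other types left out, this held for Vim in Ntsr1+Chrna3 (0.047). Without batch 27, Ina in Pvalb+Vsnl1 cells had 0.12, in a range of -0.56 to 0.12 over batches left out. Beside the gains named with their results, Nefm, Prph and Vim in Sst+Nppb, Nefl and Vim in Th, Nefl and Ina in Ntsr1+Chrna3, Nefl in Gzmbl3+Lpar3, and Nefh and Nefl in Nmu+Lad1 neurons passed with no filter on low counts. So did Nefm in Sst+Nppb with at least 5 cells per sum, Nefl in Gzmbl3+Lpar3 and Nefh in Nmu+Lad1 with thinned cells, and Nefl in Nmu+Lad1 with no batch term. The ratios to Nefl are given as log2 differences, and their sign changes are listed by the same rule. With at least 1 cell per sum, Nefh in Ntsr1+Chrna3 (-0.18), Nefm in Ntsr1+Chrna3 (-0.093), Prph in Ntsr1+Chrna3 (-0.067) and Prph in Sst+Nppb (0.37) missed the threshold, Nefm in Th (-0.27) passed the threshold and Nefh in Th (-0.13) changed sign. With at least 5 cells per sum, Nefm in Clmp (0.080) changed sign. With cells of 100000 to 400000 UMIs, Prph in Clmp (0.23) missed the threshold. With cells thinned to 20000 UMIs, Nefh in Gzmbl3+Lpar3 (-0.35), Nefh in Ntsr1+Chrna3 (-0.17), Nefh in Sst+Nppb (0.32), Nefm in Ntsr1+Chrna3 (-0.27), Nefm in Sst+Nppb (0.28), Prph in Ntsr1+Chrna3 (-0.42) and Prph in Sst+Nppb (0.31) missed the threshold. With a gate threshold of 25%, Nefh in Gzmbl3+Lpar3 (-0.56), Nefh in Ntsr1+Chrna3 (-0.39), Nefh in Sst+Nppb (0.62), Nefm in Ntsr1+Chrna3 (-0.29), Nefm in Sst+Nppb (0.28), Prph in Clmp (0.30), Prph in Ntsr1+Chrna3 (-0.37) and Prph in Sst+Nppb (0.31) missed the threshold and Nefh in Th (-0.016) changed sign. With a gate threshold of 5%, Nefh in Gzmbl3+Lpar3 (-0.52), Nefm in Ntsr1+Chrna3 (-0.19), Prph in Clmp (0.22) and Prph in Ntsr1+Chrna3 (-0.27) missed the threshold. With the mean of per-cell ratios, Nefh in Gzmbl3+Lpar3 (-0.47), Nefh in Ntsr1+Chrna3 (-0.35), Nefm in Sst+Nppb (0.31) and Prph in Sst+Nppb (0.36) missed the threshold and Nefm in Clmp (0.056) changed sign. With only cells positive for exactly 1 gate, Nefh in Ntsr1+Chrna3 (-0.36) and Prph in Sst+Nppb (0.33) missed the threshold and Nefm in Gzmbl3+Lpar3 (0.21) passed the threshold. With cells rich in markers of other types left out, Prph in Th (-0.24) passed the threshold. Over batches left out, the ratio calls that changed ranged, for Nefh in Gzmbl3+Lpar3 -0.61 to -0.53 (batch 20, 22, 24, 28-3, 29, 31, 32), Nefh in Ntsr1+Chrna3 -0.56 to -0.39 (batch 26, 27, 31, 34, 35), Nefm in Th -0.26 to -0.15 (batch 20) and Prph in Sst+Nppb 0.30 to 0.42 (batch 20, 26, 27, 28-1, 29, 34, 35). For Nefh in Gzmbl3+Lpar3 this leaves 6 batches, where no exact p is below 0.0312 before adjustment, and the gate threshold of 25% leaves 5 in Ntsr1+Chrna3, with 0.0625, so these losses say nothing of stability. Counts of genes called that moved by over 1.5 times are given by alternative. With DESeq2, the count was 376 in Th. With Pvalb+Vsnl1 taken first, the count was 1730 in Pvalb+Vsnl1. With at least 5 cells per sum, the count was 160 in Ntsr1+Chrna3, 1055 in Sst+Nppb, 30 in Th and 250 in Trpm8. With cells of 100000 to 400000 UMIs, the count was 849 in Clmp, 261 in Gzmbl3+Lpar3, 26 in Ntsr1+Chrna3, 236 in Sst+Nppb, 6 in Th and 277 in Trpm8. With cells thinned to 20000 UMIs, the count was 875 in Clmp, 588 in Gzmbl3+Lpar3, 209 in Nmu+Lad1, 211 in Ntsr1+Chrna3, 438 in Sst+Nppb, 41 in Th and 236 in Trpm8. With a gate threshold of 25%, the count was 1404 in Clmp, 588 in Gzmbl3+Lpar3, 131 in Nmu+Lad1, 6 in Ntsr1+Chrna3, 14 in Th and 555 in Trpm8. With limma voom, the count was 2283 in Gzmbl3+Lpar3, 796 in Ntsr1+Chrna3 and 443 in Th. With no filter on low counts, the count was 793 in Nmu+Lad1, 865 in Ntsr1+Chrna3 and 588 in Th. With only cells positive for exactly 1 gate, the count was 19 in Th and 65 in Trpm8. With cells rich in markers of other types left out, the count was 207 in Nmu+Lad1. Over batches left out they were 187 to 605 in Nmu+Lad1 (moved by batch 25, 26, 30), 326 to 612 in Ntsr1+Chrna3 (moved by batch 20, 28-3), 617 to 1331 in Pvalb+Vsnl1 (moved by batch 27, 29), 108 to 275 in Th (moved by batch 25, 26, 31, 34) and 449 to 1091 in Trpm8 (moved by batch 20, 26, 30). RLE factors put 982 genes higher and 958 lower in Clmp neurons, in place of 1289 and 834, and called the same 2 members. DESeq2 put 55.9% of the genes it called higher in Th neurons, in place of 67.6%. Gates were compared within batches throughout, by the batch term of the fits and by pairs in the ratio tests. The depth window and a minimum of 5 cells left no fit for Nmu+Lad1, and a minimum of 3 cells none for Pvalb+Vsnl1. Depth limits the detection of Vim: thinned to 20000 UMIs, 60.7% of Nmu+Lad1 cells held a Vim UMI, against 92.9% unthinned.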
